A study of Homo sapiens with 14 samples.

Results

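To describe the accessible chromatin around the interferon regulatory factor (IRF) genes of multiple myeloma (MM) cells, 7 members of the family were taken: IRF1, IRF2, IRF3, IRF5, IRF7, IRF8 and IRF9. IRF4, the family member that MM cells depend on, was kept apart. The members were chosen by name, and not by any measured value, though earlier results of these data were known. All reference peaks that overlapped the gene body or the 50 kb on either side of it were collected for each member, and this stretch is called the window of the gene. The 7 windows held 91 of the 72802 reference peaks of MM.1S and 89 of the 79969 reference peaks of RPMI8226. The 7 genes were read against 19970 protein-coding genes of chromosomes 1 to 22 and X.

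MM.1S and RPMI8226 are established human MM cell lines, and accessibility was measured in them by Omni-ATAC, which uses a transposase to tag open DNA with adapters for sequencing. The MM cells were grown alone (MONO) or in coculture with HS5, a stromal line from human bone marrow. Cocultured cells came from the upper transwell (TSW), behind a membrane that held HS5 back, or from the lower chamber (CO), where both cell types touched. MM.1S had 9 libraries (3 MONO, 3 TSW and 3 CO) and RPMI8226 had 5 (1 MONO, 2 TSW and 2 CO), and a reference peak was a region called in at least 3 libraries of its line. The files give 1 list of peaks for each line, with conditions pooled, with neither a value for a single library nor the reads behind a peak, and MONO, TSW and CO were not compared. The study gives read totals per library, which were not used here. Each peak carries 1 whole number, read as its support, the count of libraries in which it was called. It ran from 3 to 9 in MM.1S and from 3 to 5 in RPMI8226. Because each MM.1S condition had 3 libraries, a support over 6 there means that no condition lacked the peak, and in RPMI8226 this is sure only at a support of 5. The lists hold 1 value per line, so all values below are descriptions with no test, and intervals are 95% Wilson intervals over peaks that cover counting error only.

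IRF proteins share a DNA-binding domain that reads GAAA repeats, as in the interferon-stimulated response element (ISRE). IRF3 and IRF7 are switched on by phosphorylation below the nucleic acid sensors and drive the interferon genes, whereas IRF9 is the DNA-binding part of the complex that carries the type I interferon signal to the ISRE. IRF1 is an activator induced by interferon gamma, IRF2 mostly opposes it at the same elements, IRF5 acts below Toll-like receptors on inflammatory genes, and IRF8 works with the ETS factors PU.1 and SPIB in lymphoid and myeloid cells.

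The sequences that the results turn on were the accessible promoters of IRF1, IRF9, IRF5 and IRF8 and 5 accessible regions away from the main start sites. Promoter sequences are RefSeq windows of build GRCh38.p14, from 250 bases before to 50 bases after a start site, on the strand of the gene. This table held windows for 4 of the 7 members, and IRF2, IRF3 and IRF7 had no entry. Capitals mark matches to a motif. These are a gamma-activated site (GAS, TTCNNNGAA, an element of genes that respond to interferon gamma) and an NF-kB site in IRF1, a GAS in IRF9, and in IRF5 the reverse strand of an ETS-IRF composite element, that is, GGAA and GAAA with 2 bases between. The other IRF5 windows, among them the one at the canonical start, were accessible in both lists but held no match and are not printed. The printed IRF8 window held no match and is shown because it covers a start site that was accessible. Another IRF8 window, which overlaps it, was also accessible in both lists, held no match and is not printed.
IRF1 promoter, chr5:132490724-132491023, minus strand: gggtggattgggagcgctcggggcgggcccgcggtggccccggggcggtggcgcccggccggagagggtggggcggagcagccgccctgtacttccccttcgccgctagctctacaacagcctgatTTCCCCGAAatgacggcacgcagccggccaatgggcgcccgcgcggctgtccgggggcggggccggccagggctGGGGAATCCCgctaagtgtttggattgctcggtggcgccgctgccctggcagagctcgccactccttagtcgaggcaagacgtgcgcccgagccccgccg
IRF9 promoter, chr14:24161015-24161314, plus strand: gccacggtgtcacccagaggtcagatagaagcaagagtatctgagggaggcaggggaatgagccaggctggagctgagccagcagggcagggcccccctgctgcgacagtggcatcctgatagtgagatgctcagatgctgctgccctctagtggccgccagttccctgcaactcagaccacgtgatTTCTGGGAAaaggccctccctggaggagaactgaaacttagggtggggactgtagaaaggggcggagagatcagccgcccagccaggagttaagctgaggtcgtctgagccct
IRF5 promoter at an internal start, chr7:128940420-128940719, plus strand: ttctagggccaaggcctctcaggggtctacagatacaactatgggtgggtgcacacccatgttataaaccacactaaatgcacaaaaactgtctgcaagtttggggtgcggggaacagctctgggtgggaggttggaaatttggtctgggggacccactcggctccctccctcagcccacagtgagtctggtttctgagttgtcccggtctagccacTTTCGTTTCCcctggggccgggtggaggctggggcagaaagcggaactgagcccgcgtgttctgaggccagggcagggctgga
IRF8 promoter at an internal start, chr16:85902580-85902879, plus strand: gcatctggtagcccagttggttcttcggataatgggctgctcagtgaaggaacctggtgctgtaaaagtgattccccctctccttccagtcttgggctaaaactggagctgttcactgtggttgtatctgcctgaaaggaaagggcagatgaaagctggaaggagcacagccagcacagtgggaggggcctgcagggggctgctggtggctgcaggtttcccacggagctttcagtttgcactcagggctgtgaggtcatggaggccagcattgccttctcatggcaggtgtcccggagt

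The other 5 sequences are the central 200 bases of MM.1S peaks on the plus strand of hg38. Capitals mark an ISRE match, which is a pair of GAAA with 2 bases between, on either strand, and in the IRF1 intron also an ETS-IRF match. The first lies at an internal promoter of IRF2, the next ones are distal peaks with an ISRE, and the last is the middle of an IRF2 intron peak that MM.1S alone held.
IRF2 intron, chr4:184448926-184449125: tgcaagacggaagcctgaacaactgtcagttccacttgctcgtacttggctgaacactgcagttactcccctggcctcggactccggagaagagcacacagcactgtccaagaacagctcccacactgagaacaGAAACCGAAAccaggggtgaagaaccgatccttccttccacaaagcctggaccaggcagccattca
IRF1 intron, chr5:132464300-132464499: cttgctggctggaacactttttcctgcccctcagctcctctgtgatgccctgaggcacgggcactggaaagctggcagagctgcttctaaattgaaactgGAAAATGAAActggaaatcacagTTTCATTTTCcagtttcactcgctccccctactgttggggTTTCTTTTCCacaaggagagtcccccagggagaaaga
IRF1 upstream, chr5:132525335-132525534: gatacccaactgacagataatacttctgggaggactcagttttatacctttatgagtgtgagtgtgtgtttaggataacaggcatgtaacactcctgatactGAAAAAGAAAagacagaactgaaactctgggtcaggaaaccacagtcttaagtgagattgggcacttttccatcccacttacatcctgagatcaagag
IRF5 upstream, chr7:128933190-128933389: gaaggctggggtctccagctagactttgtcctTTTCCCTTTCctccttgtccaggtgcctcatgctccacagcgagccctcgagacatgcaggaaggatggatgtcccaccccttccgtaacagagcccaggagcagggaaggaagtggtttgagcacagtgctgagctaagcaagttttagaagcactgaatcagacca
IRF2 intron, MM.1S only, chr4:184409999-184410198: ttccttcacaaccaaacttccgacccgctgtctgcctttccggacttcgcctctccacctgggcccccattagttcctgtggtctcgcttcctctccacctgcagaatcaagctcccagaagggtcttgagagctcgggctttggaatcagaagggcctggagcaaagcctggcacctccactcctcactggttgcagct

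All 7 members had at least 1 peak at a promoter of their own in both lists. A promoter here is the 2500 bp on either side of any annotated start site of the gene, and such a peak is called an own promoter peak. Over all protein-coding genes, 77% had one in MM.1S and 72% in RPMI8226. The canonical start site, that of the main annotated transcript, lay inside a peak called in every library of both lines for 6 of the 7 members, against 49.3% of all protein-coding genes (58.7% in MM.1S alone and 51.4% in RPMI8226 alone). IRF8 was the exception, since neither list held a peak within 2500 bp of its canonical start.

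**Figure D1:**
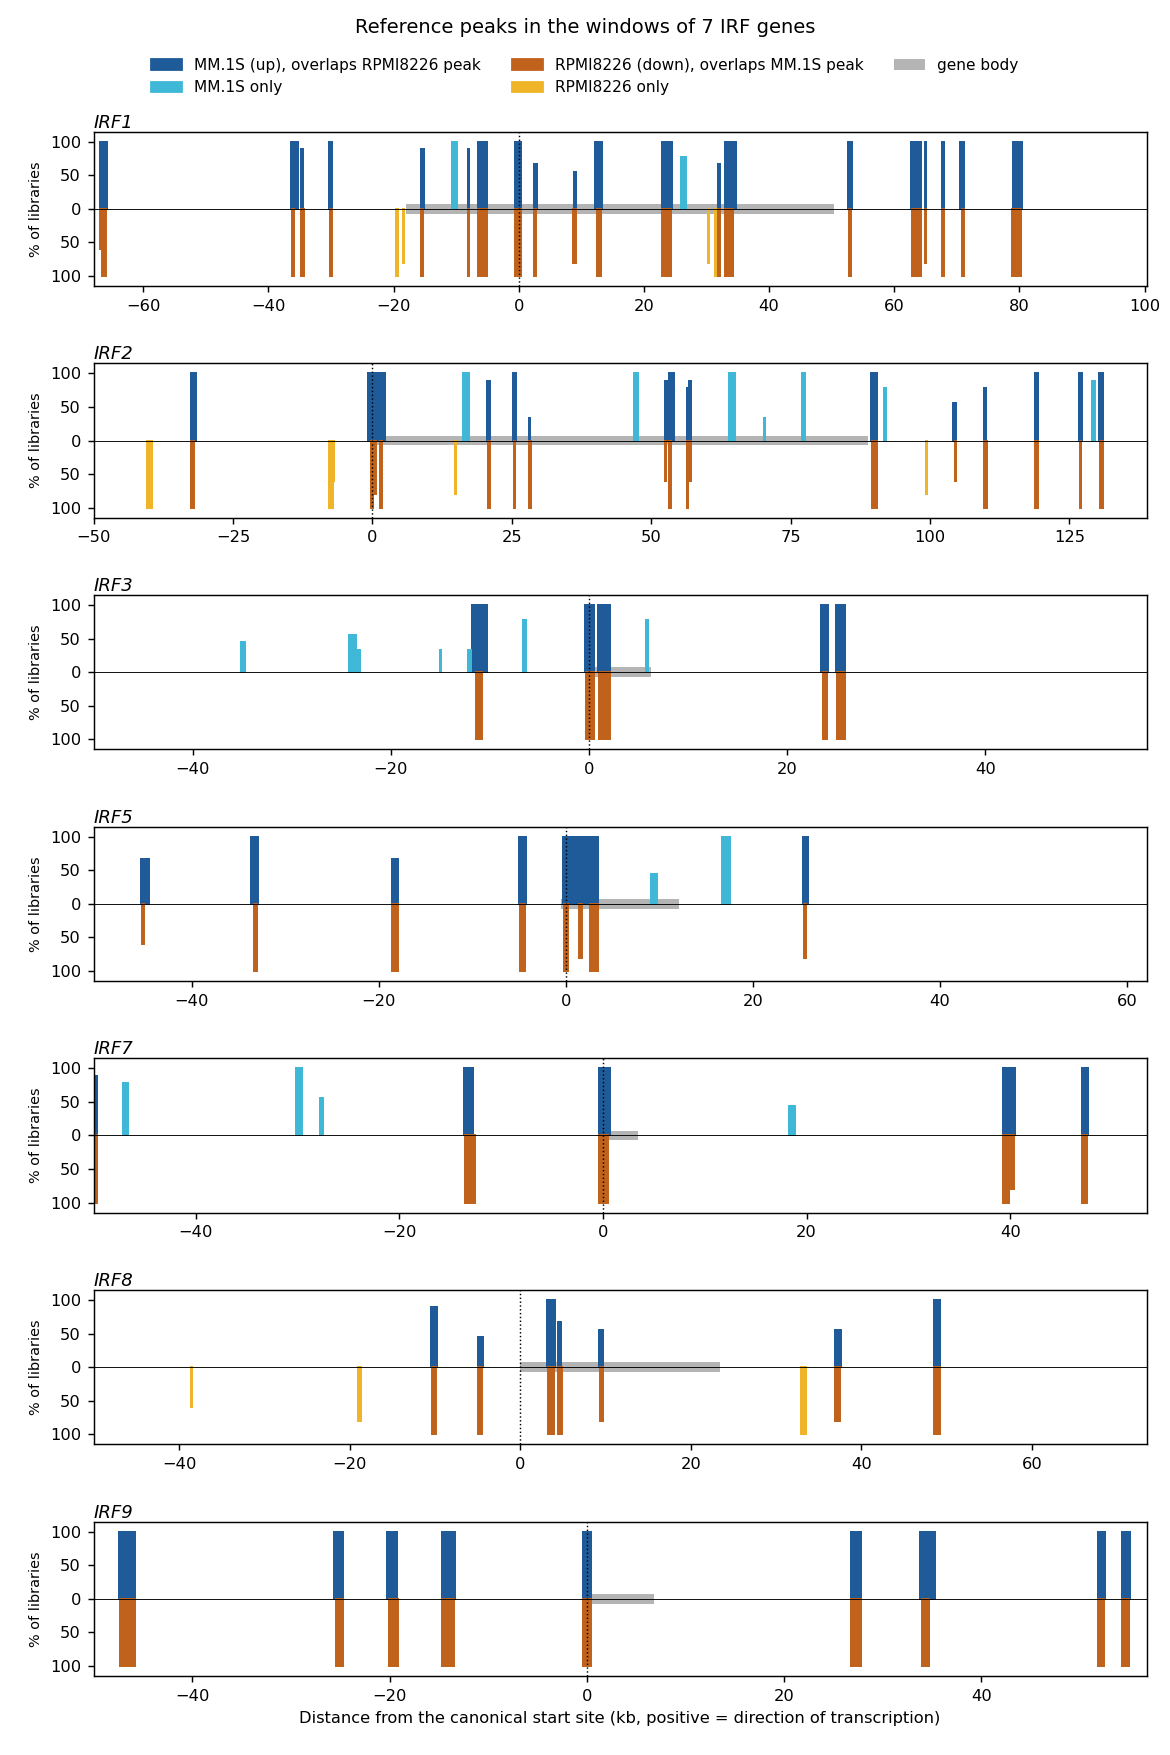
Reference peaks in the windows of the 7 genes by distance from the canonical start site (kb, positive in the direction of transcription), with MM.1S drawn upwards and RPMI8226 downwards and bar height giving the percentage of the line's libraries in which the peak was called. Darker bars overlap a peak of the other list, lighter bars do not, and the grey bar is the gene body; the dotted line at 0 is covered on both sides in 6 maps and bare in that of IRF8.

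IRF3 and IRF7, the factors that induce interferon genes, each had a broad peak over the start site, and neither list placed a distal peak, that is, a peak outside every promoter, in the window of IRF3. The IRF3 gene (chr19:49659569-49665875, minus strand) shares its promoter with BCL2L12, a gene of the BCL2 family that is transcribed the other way. The peak over both starts, chr19:49665344-49666226, was 883 bp wide with a support of 9 in MM.1S, and its RPMI8226 counterpart was 813 bp wide with a support of 5. A second promoter peak at 1.5 kb, inside the gene, was 1234 bp wide in MM.1S and 1133 bp wide in RPMI8226, again with full support in both. MM.1S had 12 peaks in the IRF3 window and RPMI8226 had 5. All 5 RPMI8226 peaks overlapped an MM.1S peak, and the 7 further MM.1S peaks had supports from 3 to 7, below the 9 libraries of the line. These 7 were narrow to moderate in width, from 179 to 689 bp. One of them lay at an internal IRF3 start at 5.9 kb (272 bp, support 7), and the other 6 lay at promoters of BCL2L12, of PRMT1, an arginine methyltransferase, and of CPT1C. The lines thus shared the core of the IRF3 locus and differed in its weakly supported surroundings.

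IRF7 (chr11:612553-615983, minus strand) is short and had a single own promoter peak in each list. It spanned chr11:615283-616345, 1063 bp, in MM.1S with a support of 9, and was 862 bp wide in RPMI8226 with a support of 5. The IRF7 window held 9 peaks in MM.1S and 7 in RPMI8226, and every RPMI8226 peak overlapped an MM.1S peak. MM.1S alone had 3 distal peaks, at 18.6 kb (512 bp, support 4), -27.7 kb (337 bp, support 5) and -46.9 kb (407 bp, support 7), where a positive distance is downstream of the canonical start and a negative one upstream. None of these was called in all 9 libraries, and RPMI8226 had no distal peak in this window. The remaining peak that only MM.1S held, 637 bp at -29.9 kb with a support of 9, lay at a promoter of DEAF1, a transcription factor gene. Other accessible promoters of the window in both lists were those of PHRF1, of SCT and of MIR210HG, the host of the hypoxia-induced microRNA miR-210.

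IRF9, the factor of the type I interferon response, had the most uniform window. It held 9 peaks in MM.1S and 9 in RPMI8226, every one overlapped a peak of the other list, and every one had full support, 9 in MM.1S and 5 in RPMI8226. The peak over the IRF9 start, chr14:24160848-24161697, was 850 bp wide in MM.1S and 888 bp in RPMI8226, so that here the RPMI8226 peak was the wider one. The GAS match printed above lay within it in both lists. No peak of this window was distal. It is also the window with the most neighbours, 19 other protein-coding genes, and its other 8 peaks lay at their promoters. They include the genes for the proteasome activator subunits, PSME1 (968 bp in MM.1S, 737 bp in RPMI8226) and PSME2 (1048 and 934 bp), and for RNF31, the catalytic subunit of the linear ubiquitin ligase complex, which shares a peak with PSME2 (1336 and 1190 bp).

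IRF1 and IRF2, the activator and its antagonist, held 45 of the 91 MM.1S peaks and 50 of the 89 RPMI8226 peaks, and 22 of 32 and 20 of 28 of the distal peaks. Their windows are also the longest of the 7, 168.28 kb for IRF1 and 188.857 kb for IRF2, so counts are also given by length. Per 100 kb of window, IRF1 had 13.1 peaks in MM.1S and 16.6 in RPMI8226, at percentiles 97.5 and 99.4 of all protein-coding genes. IRF2 had 12.2 and 11.6 peaks per 100 kb, at percentiles 96.2 and 94.4. The density around both genes was therefore near the top of the genome in both lines, while the other 5 members lay between percentiles 64.8 and 94.3 in MM.1S and between 53.0 and 82.1 in RPMI8226.

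IRF1 (chr5:132440440-132508719, minus strand) has 28 annotated start sites spread over much of its body, and 5 MM.1S peaks and 8 RPMI8226 peaks counted as its own promoter peaks. The canonical start lay in chr5:132490455-132491412, 958 bp wide with a support of 9 in MM.1S, and in a peak of 1004 bp with a support of 5 in RPMI8226. The GAS and NF-kB matches of the printed promoter both fall within this region. A wider peak stood upstream at -5.8 kb, over another annotated start, with 1521 bp in MM.1S and 1513 bp in RPMI8226 and full support in both. The other own promoter peaks were narrower. Those at 2.6 kb (454 bp, support 6 in MM.1S, and 413 bp, support 5 in RPMI8226), -8.1 kb (248 bp, support 8, and 211 bp, support 5) and -15.4 kb (450 bp, support 8, and 333 bp, support 5) were each called in all RPMI8226 libraries but not in all MM.1S libraries. Full support takes 9 calls in MM.1S and 5 in RPMI8226, so it is the stricter bar in MM.1S, and the part of read depth was not tested. RPMI8226 alone had 2 more own promoter peaks at the far upstream start, at -18.4 kb (189 bp, support 4) and -19.5 kb (258 bp, support 5). The remaining RPMI8226 one, at 8.9 kb (347 bp, support 4), overlapped an MM.1S peak of 291 bp with a support of 5 that ended short of the promoter limit and counted as distal.

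In all, 20 of 22 MM.1S peaks and 24 of 28 RPMI8226 peaks of the IRF1 window overlapped the other list. Distal peaks numbered 11 in each list. The widest distal one in MM.1S, chr5:132456053-132457853 at 33.8 kb, was 1801 bp wide with a support of 9 and covered 2 RPMI8226 peaks of 245 and 570 bp, each with a support of 5. The widest RPMI8226 distal peak, 792 bp at 12.8 kb with a support of 5, had an MM.1S counterpart of 1147 bp with a support of 9. Both lie in introns of IRF1 transcripts. Few distal peaks of IRF1 belonged to 1 line alone. In MM.1S they were a peak of 821 bp at -10.2 kb called in all 9 libraries and one of 787 bp at 26.4 kb with a support of 7. In RPMI8226 they were a peak of 246 bp at 31.4 kb called in all 5 libraries and one of 150 bp at 30.4 kb with a support of 4. The peak at 26.4 kb is the printed IRF1 intron region with ISRE and ETS-IRF matches. The shared peak at -34.7 kb, printed as IRF1 upstream, was 373 bp with a support of 8 in MM.1S and 446 bp with a support of 5 in RPMI8226, and it held the same ISRE letters in both lists.

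IRF2 (chr4:184385702-184474558, minus strand) has no other protein-coding gene in its window, and the lines differed more around it than around IRF1. The MM.1S peak over the start, chr4:184473795-184475300, was 1506 bp wide with a support of 9, whereas RPMI8226 had a peak of 469 bp over the start with a support of 5 and a separate one of 175 bp with a support of 4 at 0.5 kb. At 1.7 kb a second promoter peak had 992 bp in MM.1S and 462 bp in RPMI8226, with full support in both. At 25.5 kb, over a start within the gene body, both lists had a fully supported peak (587 bp in MM.1S and 252 bp in RPMI8226), the one printed above with the ISRE letters GAAACCGAAA. Another at 28.2 kb was weak in MM.1S (184 bp, support 3) and called in all libraries of RPMI8226 (314 bp, support 5).

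Of the 11 distal MM.1S peaks around IRF2, 5 overlapped no RPMI8226 peak, and 4 of these were called in all 9 libraries. These 4 lie in introns of IRF2. They were chr4:184457291-184458365 at 16.7 kb (1075 bp), chr4:184426990-184427613 at 47.2 kb (624 bp), chr4:184409575-184410622 at 64.5 kb (1048 bp) and chr4:184396980-184397591 at 77.3 kb (612 bp). The other 6 members together had a single distal peak of MM.1S alone with full support, that of IRF1 at -10.2 kb. The 3 distal peaks of RPMI8226 alone around IRF2 were narrow, from 180 to 235 bp, with supports of 3 or 4. Its fully supported peaks without a counterpart lay upstream at noncoding promoters instead, 658 bp at -7.5 kb, at ENSG00000286292, and 899 bp at -40.0 kb, at LINC02427. MM.1S also had 2 peaks of its own beyond the end of the gene, at promoters of the noncoding LINC02363 (628 bp at 129.4 kb, support 8) and LINC02362 (382 bp at 92.0 kb, support 7). At IRF2 the fully supported MM.1S-only peaks were thus within the gene, and the fully supported RPMI8226-only peaks were upstream of it. The widest distal peak with full support in RPMI8226 was that at -32.3 kb (531 bp), with an MM.1S counterpart of 924 bp and a support of 9.

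**Figure D2:**
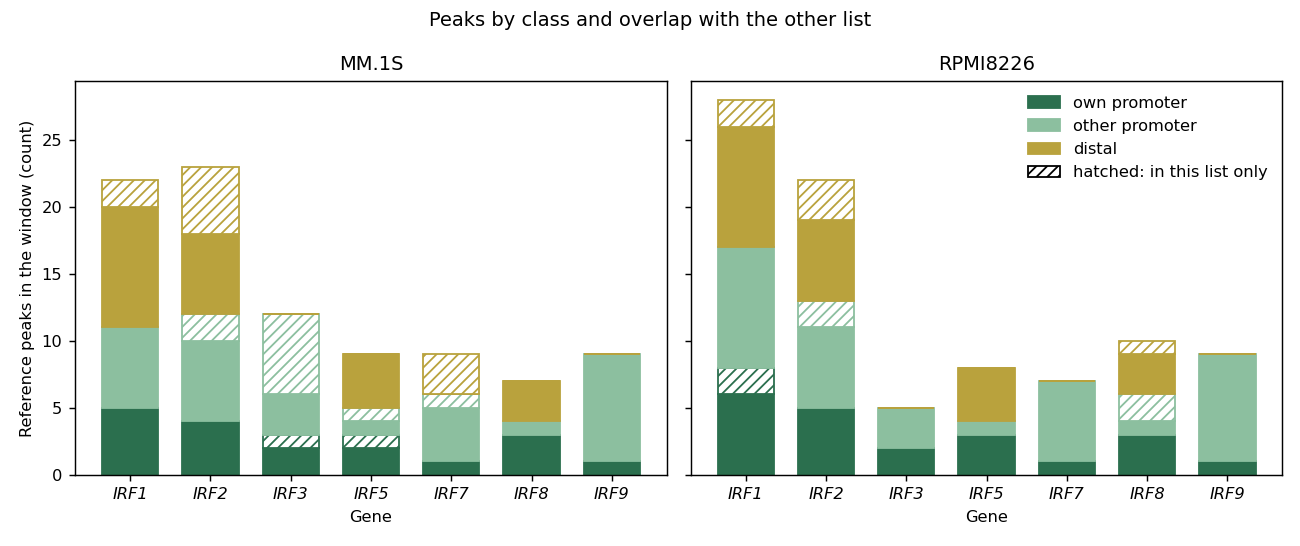
Number of reference peaks in each gene's window (y axis, count) in MM.1S and RPMI8226, split into own promoter, other promoter and distal peaks, with hatching for peaks that overlap nothing in the other list. IRF1 and IRF2 have the tallest bars in both lists, the distal class is missing for IRF3 and IRF9, and the IRF9 bars carry no hatching.

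IRF5 (chr7:128937457-128950038, plus strand), a mediator of Toll-like receptor signals, showed the widest peak of the 7 windows. Its canonical start lay in chr7:128937597-128938525, 929 bp with a support of 9 in MM.1S, and in a peak of 392 bp with a support of 5 in RPMI8226. Directly downstream MM.1S had chr7:128938722-128941389, 2668 bp wide with a support of 9. RPMI8226 had 2 separate peaks inside that stretch, of 374 bp with a support of 4 and of 780 bp with a support of 5. The RPMI8226 peak of 780 bp and the MM.1S peak both cover the part of the printed internal promoter with the ETS-IRF match TTTCGTTTCC. One more own promoter peak of MM.1S, at 9.5 kb (678 bp, support 4), had no RPMI8226 counterpart, nor had a peak of 779 bp with a support of 9 at 17.2 kb, at the promoter of ENSG00000275106.

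Each list had 4 distal peaks in the IRF5 window, and each of these overlapped 1 of the other list. The fully supported one closest to the gene, at -4.6 kb, was 691 bp in MM.1S with a support of 9 and 530 bp in RPMI8226 with a support of 5. It is the printed upstream region with an ISRE match, and it was the widest distal peak with full support in MM.1S. In RPMI8226 the widest such peak was at -18.2 kb (557 bp, support 5), which in MM.1S had a similar width (587 bp) and a support of 6. The peak at 25.6 kb went the other way, with a support of 9 in MM.1S (513 bp) and 4 in RPMI8226 (281 bp). The peak at -45.0 kb was short of full support in both lists, 6 in MM.1S (919 bp) and 3 in RPMI8226 (225 bp).

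IRF8 (chr16:85899116-85922606, plus strand), the lymphoid and myeloid member, was alone among the 7 in lacking a peak at its canonical start, at position 85899162. Of all protein-coding genes, 25.2% had no peak within 2500 bp of the canonical start in either list, and 3.28% had none there but had a peak at another of their start sites in both lists, as IRF8 did. The peak chr16:85902334-85903222 at 3.6 kb covered internal start sites, among them that of the printed window. It was 889 bp wide with a support of 9 in MM.1S and 744 bp with a support of 5 in RPMI8226. A neighbour at 4.6 kb had 282 bp and a support of 6 in MM.1S and 432 bp and a support of 5 in RPMI8226, and a peak at 9.5 kb had 358 bp with a support of 5 and 272 bp with a support of 4. Upstream, the closest peak stood at -4.7 kb, with 538 bp and a support of 4 in MM.1S and 392 bp and a support of 5 in RPMI8226.

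All 7 MM.1S peaks of the IRF8 window overlapped an RPMI8226 peak, and 7 of the 10 RPMI8226 peaks overlapped an MM.1S peak. The distal peaks at -10.2 kb (730 bp, support 8 in MM.1S, and 446 bp, support 5 in RPMI8226) and at 48.9 kb (722 bp, support 9, and 669 bp, support 5) were the best supported in both lists. The widest distal peak with full support was the one at 48.9 kb in either line. RPMI8226 alone had peaks at -38.6 kb (141 bp, support 3), -18.8 kb (325 bp, support 4) and 33.2 kb (573 bp, support 5), and the last lay at the promoter of the noncoding gene ENSG00000285163. The accessible regions of IRF8 were therefore the same in both lines from -10.2 to 9.5 kb, and the RPMI8226 list added peaks outside that stretch.

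Over all windows, sharing between the lists was frequent. Of the 91 MM.1S peaks, 69 overlapped an RPMI8226 peak (75.8%, 66.1 to 83.5), against 64.6% of the whole MM.1S list. Of the 89 RPMI8226 peaks, 77 overlapped an MM.1S peak (86.5%, 77.9 to 92.1), against 62% of its list. With an overlap of 50% or more of each peak required, the shares were 54.9% against 51.8% of the list in MM.1S and 56.2% against 47.2% in RPMI8226, so the distance to the list shrank. Promoter peaks were shared more often than distal ones. In MM.1S, 47 of 59 promoter peaks (79.7%) and 22 of 32 distal peaks (68.8%) had a counterpart, against 71.8% and 60% in the list. In RPMI8226 the counts were 55 of 61 (90.2%) and 22 of 28 (78.6%), against 76.6% and 53.7%. By gene, sharing ran in MM.1S from 5 of 12 peaks at IRF3 to 9 of 9 at IRF9 and 7 of 7 at IRF8, and in RPMI8226 from 7 of 10 at IRF8 to 5 of 5 at IRF3, 8 of 8 at IRF5, 7 of 7 at IRF7 and 9 of 9 at IRF9.

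The share with full support was higher than in the lists, except among the MM.1S promoter peaks. For all MM.1S peaks, however, its interval took in the share of the list. Promoter peaks also made up more of these windows than of the lists. In the lists they had full support more often than distal peaks (67.5% against 42.0% in MM.1S, 74.2% against 58.5% in RPMI8226). The part of this mix in the higher shares was not tested. In MM.1S, 55 of 91 peaks were called in all 9 libraries (60.4%, 50.2 to 69.9), against 52% of the list. In RPMI8226, 69 of 89 were called in all 5 (77.5%, 67.8 to 85.0), against 64.1%. Promoter peaks had full support in 39 of 59 cases in MM.1S (66.1%), against 67.5% of the promoter peaks of the list. In RPMI8226 they had it in 50 of 61 (82.0%), against 74.2%. Shared peaks had it in 48 of 69 cases in MM.1S and in 64 of 77 in RPMI8226, and peaks of 1 line alone in 7 of 22 and 5 of 12. Read the other way, 48 of the 55 fully supported MM.1S peaks were shared, against 81.3% of such peaks in the list, and 64 of the 69 in RPMI8226, against 74.1%. In MM.1S, 71 of the 91 peaks had a support over 6 and were thus called in every condition at least once. The other 20 could lack a condition, 11 of the 69 shared peaks and 9 of the 22 MM.1S-only peaks. Supports of 7, 8 and 9 made up 7.69%, 9.89% and 60.4% of the MM.1S window peaks, against 7.12%, 13.2% and 52.0% of the list. Most peaks of the whole MM.1S list thus had a support over 6 too. Of the own promoter peaks that cover a canonical start, all 6 in MM.1S reached 9 libraries, so each was called in every library of every condition. Changes in the amount of signal at these promoters are not seen in such calls.

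**Figure D3:**
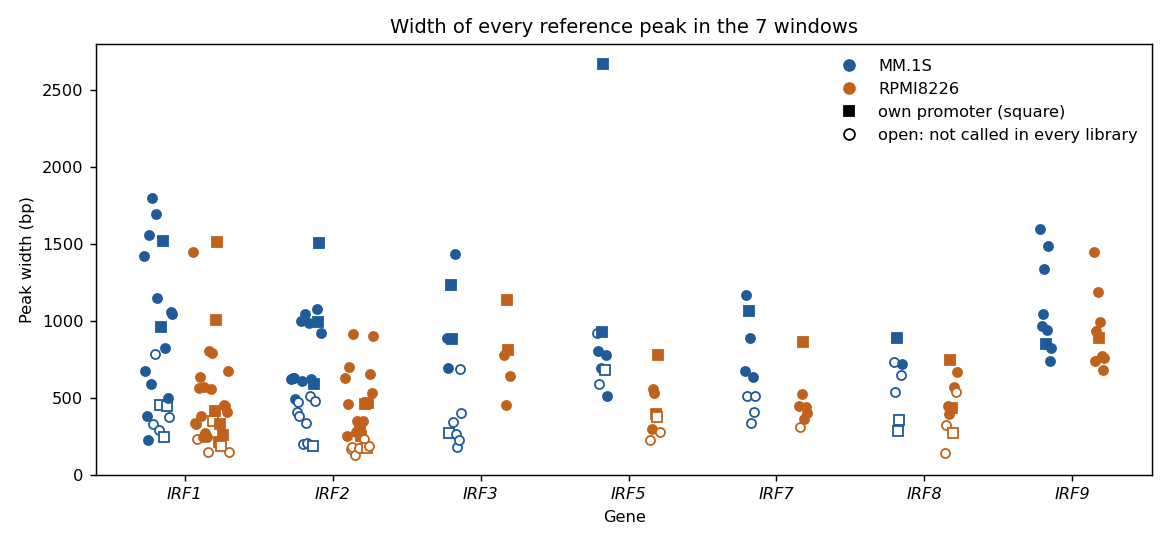
Width in bp (y axis) of each reference peak by gene, with MM.1S in blue to the left and RPMI8226 in orange to the right, own promoter peaks as squares, and open symbols for peaks not called in every library of the line. The widest point is the IRF5 peak of 2668 bp in MM.1S, and open symbols lie mostly at the bottom of each column.

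MM.1S peaks were wider in these windows, as they were across the lists. The median width was 678 bp in the MM.1S windows and 446 bp in the RPMI8226 windows, against 536 and 362 bp over the lists. MM.1S had the wider peak in 49 of the 61 pairs (80.3%, 68.7 to 88.4) where a single peak of one list met a single peak of the other, against 81.6% of 44631 pairs of this kind genome-wide. A single MM.1S peak covered several RPMI8226 peaks in 8 of 91 cases (8.79%), against 3.28% of the list, among them the peak over the IRF2 start and the peak of 2668 bp at IRF5. Each line was called from its own libraries, and whether the widths follow the chromatin, the depth or the number of libraries was not tested.

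Distal peaks were a smaller part of these windows than of the lists, 32 of 91 in MM.1S (35.2%) and 28 of 89 in RPMI8226 (31.5%), where the lists had 60.8% and 64%. The windows were drawn around genes and so take in promoters by design, which the lists do not. The distal share in the windows of other genes was not computed, so this gap is not a result about the IRF genes. With start sites of protein-coding transcripts only, distal peaks outnumbered promoter peaks, at 56 of 91 (61.5%) and 49 of 89 (55.1%), and the lists had 74.7% and 76.8%. Of the 32 MM.1S distal peaks, 15 lay in an intron and 1 in an exon of the member, 11 in another gene and 5 between genes. Of the 28 in RPMI8226, 12 lay in an intron of the member, 11 in another gene and 5 between genes. They stood at a median of 32.95 kb from the canonical start in MM.1S and 32.15 kb in RPMI8226, 20 and 17 of them downstream. For 20 of 32 and 16 of 28, the member was the protein-coding gene with the nearest start. Full support was reached by 16 of 32 (50%) and 19 of 28 (67.9%), against 42% and 58.5% of distal peaks in the lists. Their GC content was close to that of other distal peaks, with a median of 49.75% in MM.1S and 50.5% in RPMI8226 against 48% in both lists.

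**Figure D4:**
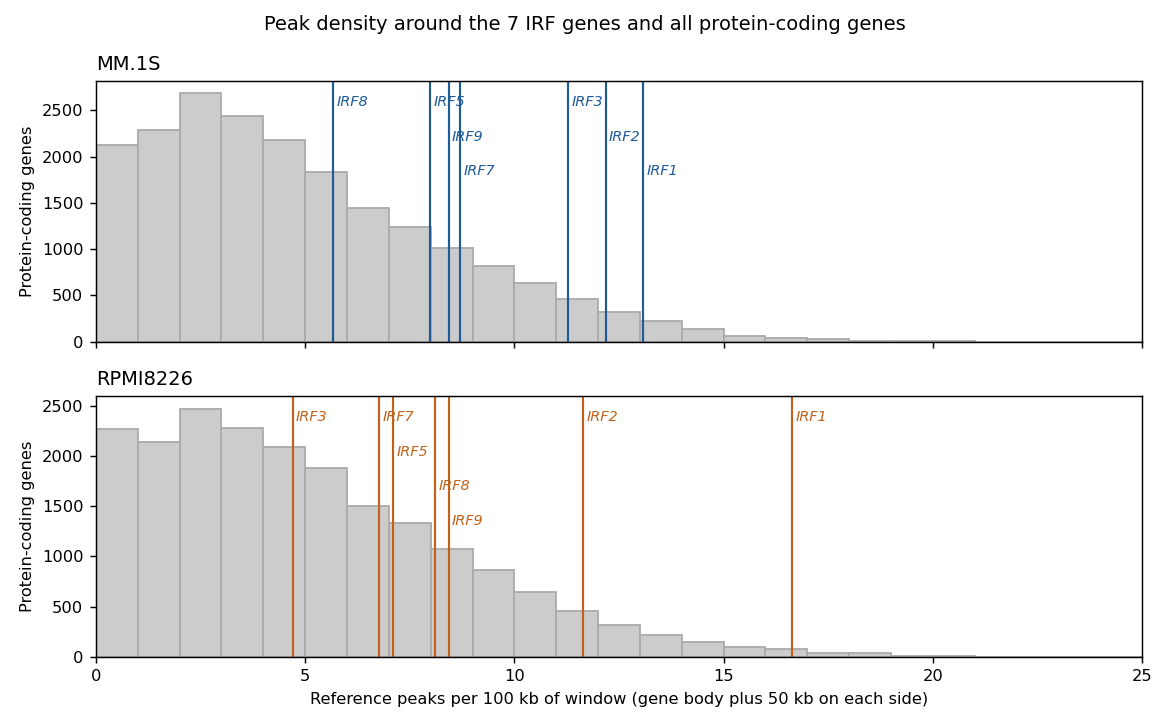
Distribution of reference peaks per 100 kb of window over all protein-coding genes (grey bars, number of genes on the y axis), with a line for each of the 7 genes, in MM.1S (top) and RPMI8226 (bottom). IRF1 and IRF2 lie in the right tail in both lines, and IRF3 moves from 11.3 in MM.1S to 4.70 in RPMI8226.

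The median density of the 7 windows was 8.70 peaks per 100 kb in MM.1S and 8.10 in RPMI8226, against medians of 4.24 and 4.43 over all protein-coding genes. IRF3 differed most between the lists, with 11.3 peaks per 100 kb in MM.1S (percentile 94.3) and 4.70 in RPMI8226 (percentile 53.0). IRF8 had the lowest density in MM.1S, 5.67, at percentile 64.8, and stood at percentile 80.5 in RPMI8226. The windows of IRF1, IRF3, IRF5, IRF7 and IRF9 hold 4, 7, 2, 6 and 19 other protein-coding genes, and those of IRF2 and IRF8 none. The part of such neighbours in the densities was not tested.

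Matches to IRF elements and the GAS were found in few of these peaks, ISRE matches in a slightly smaller and GAS matches in a slightly larger share than over the whole lists. The motifs were sought on both strands in the central 200 bp of each peak. An ISRE match was present in 5 of 91 MM.1S peaks (5.49%, against 6.84% of all peaks) and 5 of 89 RPMI8226 peaks (5.62%, against 6.26%). In MM.1S these were the 4 printed regions with capitals and the peak shared by PSME2 and RNF31 near IRF9, which held GAAAAAGAAA. In RPMI8226 they were the IRF2 intron, the IRF1 peak at -34.6 kb, an IRF1 peak at -36.1 kb, the PSME2 and RNF31 promoter and the PSME1 promoter, where the letters were TTTCGCTTTC. A GAS match stood in 6 MM.1S peaks (6.59%, against 5.08%) and 6 RPMI8226 peaks (6.74%, against 5.37%). Those at own promoters were the canonical IRF1 peak, the IRF1 peak at -5.8 kb (TTCCGCGAA) and the IRF9 peak, each in both lists. The others lay at the promoters of RRAS and SCAF1 near IRF3 in both lists, at -32.1 kb of IRF2 in MM.1S and -32.3 kb in RPMI8226, with different letters because the centres differ, at a LINC02363 promoter 129.4 kb from the IRF2 start in MM.1S (TTCAAAGAA), and at -66.8 kb of IRF1, at the promoters of RAD50 and IL5, in RPMI8226 (TTCGGAGAA).

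ETS-IRF matches can share their GAAA with an ISRE match. In the central 200 bp they were found in 2 MM.1S peaks (2.20%, against 3.43%) and 0 of 89 RPMI8226 peaks, against 4.38%. The 2 were the IRF1 intron peak at 26.4 kb and the peak over the IRF2 start, with GGAAATGAAA. These IRF2 letters also lie inside the RPMI8226 peak over that start, but outside its central 200 bp. The printed IRF5 match likewise lies inside a peak of each list and outside the centres. The counts thus depend on where peaks are centred and do not show that the lines differ. AP-1 letters (TGANTCA) were found in 4 MM.1S peaks (4.40%, against 9.98%) and 13 RPMI8226 peaks (14.6%, against 17.6%), and an NF-kB consensus in 7 (7.69%, against 7.29%) and 9 (10.1%, against 7.83%). Among all 35116 RefSeq promoter windows, a GAS match was held by 7.66%, an NF-kB match by 11.3%, an ETS-IRF match by 2.82%, an ISRE match by 3.57% and an AP-1 match by 7.71%. A match gives letters only and does not show that a factor binds there.

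Most genes that act with the IRFs in interferon and Toll signalling had an own promoter peak, as did 77% of all protein-coding genes in MM.1S and 72% in RPMI8226, so small groups in which all members have one lie not far from that share. All 6 receptor genes, from IFNAR1 to IL10RB, and all 11 genes of adaptors and IRF kinases had one in both lists. The ligands stood apart. IFNA1, IFNA2, IFNB1 and IFNG had no own promoter peak in either list, and IFNL1, a lambda interferon, had one with a support of 8 in MM.1S and 3 in RPMI8226. Of the 8 sensors, TLR8 had none in either list, and TLR3, the receptor for double-stranded RNA, had a peak in MM.1S with a support of 8 and none in RPMI8226. Of 7 partners and corepressors, SPIB had a peak in 6 MM.1S libraries and none in RPMI8226, and SPI1, which encodes PU.1, had a fully supported peak in both.

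IRF4 gave a measure for the other members. This gene, which lies near the end of chromosome 6, had 9 peaks in MM.1S and 10 in RPMI8226, 3 of them own promoter peaks in each list. The peak over its start was 1387 bp wide with a support of 9 in MM.1S and 901 bp with a support of 5 in RPMI8226, so IRF1, IRF2, IRF3, IRF5, IRF7 and IRF9 were as fully supported at the start as IRF4.

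The labelled cell type was read from own promoter peaks at marker genes, where a call says that a promoter was open and not that the gene was expressed, and where 77% of all protein-coding genes in MM.1S and 72% in RPMI8226 had such a peak. All 9 plasma cell markers, such as SDC1, PRDM1 and XBP1, had one in both lists. Of 5 B cell markers 4 did, all but MS4A1, which is near the share over all genes. Of 7 stromal markers 4 did in both lists, COL1A1, COL1A2, PDGFRB and DCN, with supports from 6 to 9 in MM.1S and 3 to 5 in RPMI8226. COL1A1 and PDGFRB had full support in both lists, and thus also in the MONO libraries, while COL1A2 had 6 and 3 and DCN had 8 and 4. COL3A1, LUM and THY1, which encodes the CD90 used to sort stromal cells away, had none. Of 4 macrophage markers, CD14 and CD68 had one in both lists, and LYZ and CSF1R in RPMI8226 alone. Within 2500 bp of the canonical start, the plasma cell markers with a peak numbered 9 in MM.1S and 8 in RPMI8226. In the same order, the numbers were 3 and 2 for B cell, 3 and 3 for stromal, and 2 and 3 for macrophage markers. The study reports a minimal HS5 presence in the MM cells sorted from the lower chamber, which gave the CO libraries. The part of such carry-over in peaks of low support was not tested. The lowest support of 3 was held by 5 of the 91 MM.1S peaks of these windows (5.49%, against 8.64% of the list). In RPMI8226 it was held by 7 of the 89 (7.87%, against 15.3%).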

How the data were processed

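Omni-ATAC libraries of MM.1S and RPMI8226 (14 in all) were grouped, by their titles, into lines and culture conditions. MM cells had been sorted as CD90- CD38+ cells. According to the methods of the study, the authors mapped reads to hg38 with Bowtie2, removed multi-mapped reads, kept 1 read per position, called peaks with MACS3 in each library and kept peaks found in at least 3 libraries. Versions, the calling threshold and the joining of boundaries are not given in the sources used here. The deposited lists give coordinates and a whole number of another kind than reads, with no header, which was read as the number of libraries and was not normalized by the authors. Starts were taken as 0-based and are printed 1-based. The lists hold no counts. The study's supplement states read totals per library, which were not used here, and the reads behind a peak, and so its precision, are unknown from the files. No test was run.

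Gene bodies, start sites and canonical transcripts came from GENCODE release 44. Windows were the gene body plus 50 kb on each side, promoters 2500 bp on either side of a start, and every other peak was distal. Peaks were shared when they overlapped by at least 1 bp. Distances run from the peak's centre to the canonical start. Percentiles are over all protein-coding genes and count ties by their middle. Motifs were exact matches. RefSeq promoter sequences are of GRCh38.p14. Scripts used Python 3.11.15, SciPy 1.17.1 and matplotlib 3.10.9, and were tested on simulated peaks. The members, gene lists and motifs were chosen with earlier results of these data known. Regions named were all own promoter peaks, the widest fully supported distal peak of each gene and list, fully supported distal peaks of 1 line alone, and peaks with an ISRE, GAS or ETS-IRF match. Further peaks were named after their values were seen. Values of some genes of these lists are not reported here.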

Additional observations from a re-analysis of the deposited data

How the results depend on the processing

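Of the recomputed values, 55 stayed within 1.5 times of a count or within the interval of a share, while 25 moved. Promoter peaks in the windows numbered 37 with 20 kb and 90 with 100 kb on either side in MM.1S (59 with 50 kb), 35 in MM.1S and 40 in RPMI8226 with start sites of protein-coding transcripts only, 39 in MM.1S among peaks called in every library, and 28 and 33 among peaks whose nearest coding start was the member's. Distal peaks numbered 49 in MM.1S and 45 in RPMI8226 with 100 kb on either side, 17 in MM.1S with promoters of 5000 bp on either side, 56 and 49 with protein-coding transcripts only, 16 in MM.1S among peaks called in every library, 20 and 16 among peaks nearest to the member, 21 in MM.1S without IRF2 and 17 in RPMI8226 without IRF1. With protein-coding transcripts only, the order of promoter and distal peaks turned in both lists, while the distal share stayed below that of the list. Own promoter peaks numbered 12 in MM.1S among peaks called in every library, 15 in RPMI8226 without IRF1, and 10 and 11 at canonical starts only, an alternative chosen after seeing the data, as were RefSeq gene bodies. Shared peaks made up 54.9% and 56.2% when 50% of both peaks had to overlap, and 87.3% and 92.8% among peaks called in every library, against 81.3% and 74.1% of such peaks in the lists. Alternatives that take in more or fewer peaks or start sites change the counts by their definition. Why sharing was higher among peaks called in every library was not tested. No paired analysis was possible because the lists pool the libraries, and for the same reason no library could be left out. The reads behind a peak are unknown from the files, so the absence of a peak, as at the canonical start of IRF8, means that none was called in at least 3 libraries.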
